A study of Mus musculus with 12 samples.

Results

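Matricellular proteins are secreted into the extracellular matrix, where they act mainly as signals between matrix and cell surface and are not primarily load-bearing fibres. They bind integrins, other receptors, collagens and growth factors, and in skeletal muscle they are known for their appearance during development, injury and regeneration. Osteopontin, SPARC and its relative hevin, periostin, tenascin-C and the thrombospondins are the classical examples.

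The 8 genes described here, Spp1, Sparc, Sparcl1, Postn, Tnc, Thbs1, Thbs2 and Thbs3, were selected by symbol from the 55487 Ensembl genes of the deposited count table, and each matched a single annotated gene. All 8 passed the filter on low counts and were among the 14175 genes tested. The RNA came from C2C12 cells, a mouse myoblast line that fuses into multinucleated myotubes when serum is lowered. Both groups were differentiated for 5 days in DMEM with 2% horse serum and antibiotics, and the medium was then changed for 24 h. The control group (libraries 1 to 6) received 4% horse serum, and the treated group (libraries 7 to 12) received 4% STEM, a product of the factors secreted by human embryonic stem cells that were partly differentiated, free of cells. STEM took the place of horse serum, so the presence of STEM and the absence of serum cannot be told apart. All libraries came from the same cell line, and the labels do not say whether they came from separate cultures, so that p-values measure only the spread between these libraries. The study lists osteopontin among the secreted factors of STEM, and the counts measure transcripts of the mouse cells, not that protein.

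Total counts were between 13285472 and 18254882 per horse serum library and between 14909485 and 24536264 per STEM library. Myotube markers were present in every library, with a summed level of the 10 listed genes (among them Myh3, Acta1, Ttn and Mb) between 19315 and 21354 CPM in horse serum libraries 1 to 5 and between 15911 and 22042 CPM with STEM. CPM is the count of a gene scaled to a common library total after TMM normalization. Horse serum library 6 stood apart, with 11085 CPM for the same sum and the lowest horse serum value of 10 of the 10 markers. It also lay outside the range of horse serum libraries 1 to 5 for all 8 matricellular genes and for 69.0% of all genes tested, and each member's result is therefore given with and without it. Of 7 macrophage markers, the defining genes Adgre1 and C1qa had a count of 0 in every library. The summed level of those 7 markers was 2.31 to 5.35 CPM with horse serum and 4.31 to 5.77 CPM with STEM, most of it from Cd68. The 4 endothelial markers summed to at most 1.0 CPM and none was tested, and the 5 fibroblast markers to 19.4 to 31.4 CPM with horse serum and 29.2 to 34.1 CPM with STEM, where Dpt was the 1 gene called of 3 tested. The 5 markers of myoblasts and reserve cells summed to 231 to 276 CPM with horse serum and 191 to 225 CPM with STEM (3 of 5 called, all lower). The 4 proliferation markers summed to 547 to 909 and 413 to 504 CPM (3 of 4 called, all lower), and of the 10 myotube markers Mymk was called higher and Myog and Myh8 lower. These counts of called markers stand beside 36.4% of all genes tested. Without library 6, 6 of the 10 myotube markers were called, 1 higher and 5 lower, beside 50.8% of all genes in that fit. Acta1 (log2 fold change -0.25), Tnnt3 (-0.17) and Mb (-1.14) were added to the lower ones. Pdgfra of the fibroblast list was then also called higher, and the calls among myoblast and proliferation markers numbered 3 and 3 as before. Csf1r of the macrophage list was not tested with all libraries, and was tested and called higher only without library 6. It had at most 30 counts in any library (0.288 ± 0.198 CPM with horse serum, 0.916 ± 0.314 CPM with STEM). Its STEM values carried it past the filter on low counts, so no conclusion is drawn from that call. The part of these markers in the results was not tested. In RNA from whole cultures, fewer cells of a type and less RNA per cell cannot be told apart.

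The promoter windows of 3 members whose transcripts differed between the groups are shown here as the sequence around an annotated start of each gene, Spp1 and Postn from the genes that were lower with STEM and Tnc from those that were higher. Each window holds 250 bases before and 50 bases from the RefSeq start on GRCm38.p6, and 6 of the 8 members had a window. RefSeq lists a further start for each of Spp1, Postn and Tnc, whose window is not shown. The window nearest to the GENCODE start of the gene was taken, and which start the measured transcripts use was not tested. Capitals mark every match, on either strand, to the 8 short motifs searched, which were the TATA box (TATAAA), the CCAAT box (CCAAT), the GC box (GGGCGG), the E-box bound by myogenic factors (CANNTG), the AP-1 site (TGANTCA), the MCAT site (CATTCC), the RUNX site (AACCACA) and the CArG box, given by name.
Spp1, chr5:104434861-104435160, plus strand: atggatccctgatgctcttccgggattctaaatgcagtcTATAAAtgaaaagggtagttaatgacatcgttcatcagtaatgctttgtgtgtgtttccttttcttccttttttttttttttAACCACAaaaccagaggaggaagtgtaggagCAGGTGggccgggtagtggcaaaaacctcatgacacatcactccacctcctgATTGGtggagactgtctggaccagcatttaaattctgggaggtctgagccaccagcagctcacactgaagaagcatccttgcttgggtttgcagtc
Postn, chr3:54360857-54361156, plus strand: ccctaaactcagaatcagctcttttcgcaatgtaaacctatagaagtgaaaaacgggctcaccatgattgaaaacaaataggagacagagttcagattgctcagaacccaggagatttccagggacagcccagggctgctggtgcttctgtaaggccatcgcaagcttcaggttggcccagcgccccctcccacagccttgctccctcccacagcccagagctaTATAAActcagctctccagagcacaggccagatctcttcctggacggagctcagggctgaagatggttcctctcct
Tnc, chr4:64046966-64047265, minus strand: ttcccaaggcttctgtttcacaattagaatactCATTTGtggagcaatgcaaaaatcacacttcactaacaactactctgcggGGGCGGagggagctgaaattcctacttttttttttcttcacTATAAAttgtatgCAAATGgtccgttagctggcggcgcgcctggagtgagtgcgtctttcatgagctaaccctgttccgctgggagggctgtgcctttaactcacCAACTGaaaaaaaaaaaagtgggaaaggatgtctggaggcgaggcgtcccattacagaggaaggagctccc
The Spp1 window held 1 match each to the TATA box, the CCAAT box, the E-box and the RUNX site. Its TATA box match begins at base -211 relative to the start. The Postn window held a single match, a TATA box that begins 26 bases before the start. In the Tnc window there were 3 E-boxes, 1 GC box and 1 TATA box, which begins at base -126 relative to the start. The TATA box matches of Spp1 and Tnc thus lie farther from the start than that of Postn. Over all 32851 windows of this length, 72.3% held an E-box, 37.4% a CCAAT box, 35.7% a GC box, 13.6% a TATA box and 5.27% the RUNX site. A CArG box stood in 1.63% of the windows, an AP-1 site in 7.81% and an MCAT site in 14.7%, and none of these last 3 motifs was found in the 3 windows shown. A match of letters is a description and not evidence of binding.

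The comparison of 4% STEM with 4% horse serum shows how the transcripts of these cultures differed when STEM took the place of serum. Of the 8 matricellular genes, 5 were differentially expressed at an adjusted p of 0.05 (edgeR's quasi-likelihood test, Benjamini-Hochberg adjustment over all 14175 genes), against 36.4% of all genes tested. Sparc and Tnc rose with STEM, while Spp1, Sparcl1 and Postn fell. Thbs1, Thbs2 and Thbs3 did not pass the test. The median log2 fold change was -0.28 for the 8 genes and 0.012 for all genes, and without horse serum library 6 these medians were -0.05 and 0.008. In 4 members (Spp1, Sparc, Sparcl1 and Tnc) the libraries of the groups did not overlap, against 17.2% of all genes tested. Without horse serum library 6 this held for 7 members, Thbs1 being the exception, against 33.4% of the same genes. Without that library, all 8 passed the test, 4 higher (Sparc, Tnc, Thbs2 and Thbs3) and 4 lower (Spp1, Sparcl1, Postn and Thbs1), against 50.8% of the 14267 genes then tested.

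**Figure D1:**
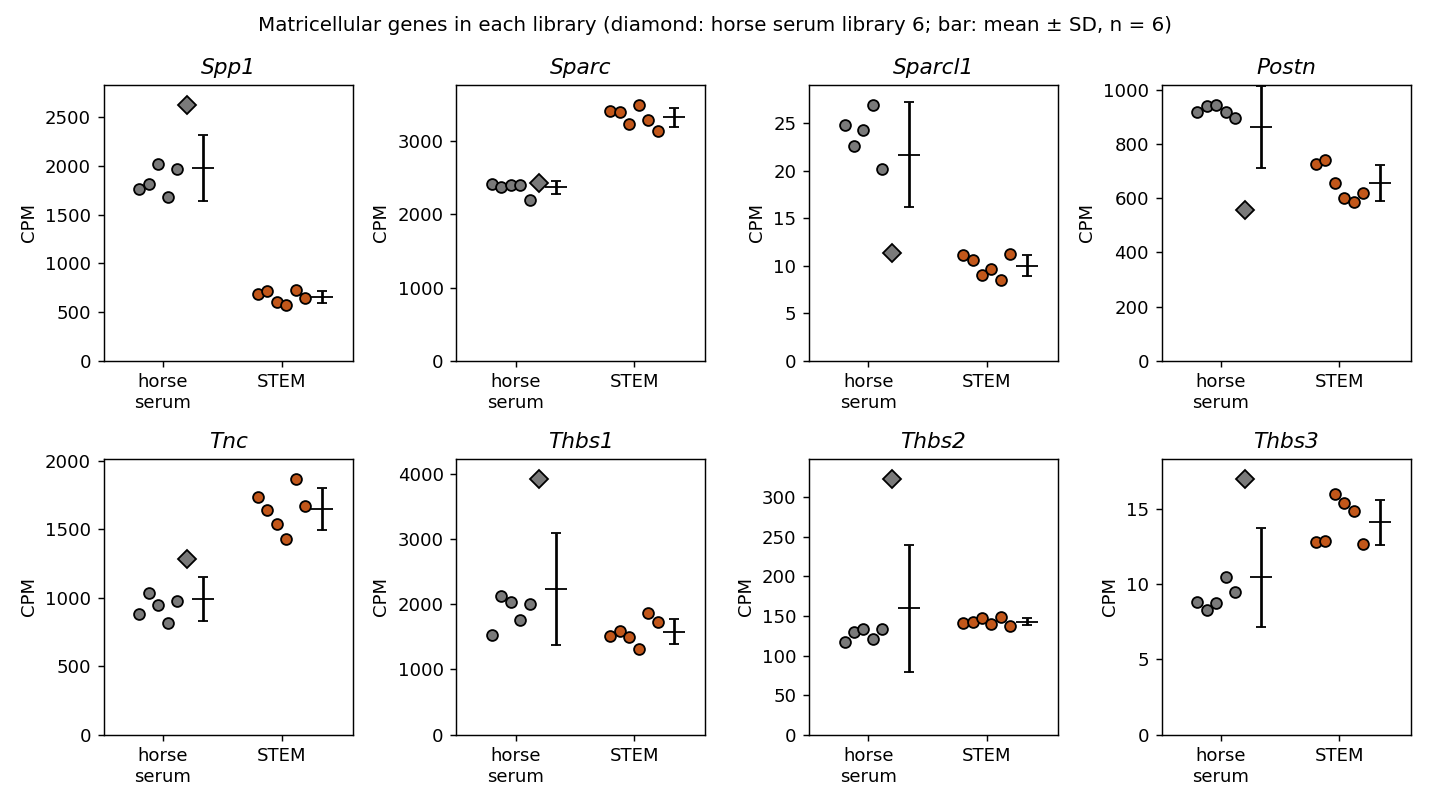
Level of each of the 8 genes (vertical axis, CPM, starting at 0) in the 6 horse serum libraries (grey) and the 6 STEM libraries (orange), with horse serum library 6 as a diamond and the mean ± SD as bars. Spp1, Sparc, Sparcl1 and Tnc do not overlap between the groups, and library 6 lies far from the other horse serum libraries for Postn, Thbs1, Thbs2 and Thbs3.

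Spp1 encodes osteopontin, a phosphorylated glycoprotein that binds integrins and CD44 and is also known as a cytokine of injured muscle. The gene (ENSMUSG00000029304, GRCm38 chromosome 5, 104435118 to 104441050, protein coding) was expressed between 1688 and 2624 CPM with horse serum (median 1894) and between 573 and 726 CPM with STEM (median 665). Every STEM library was below every horse serum library, and the highest value was that of horse serum library 6. The mean was 1981 ± 340 CPM in the control group and 658 ± 62.2 CPM in the STEM group (SD, n = 6 each), a 3.01-fold fall. Its log2 fold change of -1.59 (standard error 0.101, 95% interval -1.81 to -1.37, adjusted p = 9.26e-08 in edgeR) was the largest in size of the 8 genes. Without library 6 the log2 fold change was -1.49 (adjusted p = 1.49e-11 in edgeR). Spp1 and Sparcl1 were among the 2.69% of tested genes that were called with a log2 fold change of 1 or more in size.

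The tested genes nearest to Spp1 on chromosome 5 were not called. Spp1 belongs to a cluster of genes for secreted phosphoproteins of bone and tooth, which lies between Sparcl1 and Pkd2. Dspp, Ibsp and Mepe of this cluster had a count of 0 in all 12 libraries. Dmp1, the gene of dentin matrix protein, was at 8.15 ± 1.27 CPM in the control group and 8.80 ± 2.08 CPM in the STEM group (log2 fold change 0.11, adjusted p = 0.592 in edgeR). Pkd2, which encodes the channel polycystin-2, was at 92.4 ± 4.84 and 87.4 ± 5.23 CPM (log2 fold change -0.08, adjusted p = 0.227 in edgeR). Sparcl1, the gene on the other side of the cluster, 321 kb from Spp1, also fell. The predicted gene Gm42793 shares 309 exonic bases and the strand with Spp1, and its count did not exceed 18 in any library. Reads in the shared bases cannot be told apart by strand. The low count therefore does not show that the overlap left the Spp1 count unaffected.

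Sparc and Sparcl1 encode a pair of related calcium-binding glycoproteins, and their transcripts moved in opposite directions. SPARC, also called osteonectin, binds collagens and takes part in fibril assembly. Sparc (ENSMUSG00000018593, chromosome 11, 55394500 to 55423183) ranged from 2199 to 2420 CPM with horse serum (median 2399) and from 3134 to 3485 CPM with STEM (median 3337). All STEM libraries lay above all horse serum libraries. The means were 2367 ± 84.0 and 3322 ± 130 CPM (SD, n = 6 each), a 1.40-fold rise with a log2 fold change of 0.49 (standard error 0.0458, 95% interval 0.39 to 0.59, adjusted p = 2.06e-06 in edgeR). Sparc was the member that library 6 moved least, with 2420 CPM there against 2356 ± 89.4 CPM in the other 5, and a log2 fold change of 0.50 without it.
Sparcl1 encodes hevin, which shares the collagen-binding part of SPARC. Sparcl1 (ENSMUSG00000029309, chromosome 5, 104079111 to 104113733) had 11.4 to 26.9 CPM with horse serum (median 23.4) and 8.51 to 11.2 CPM with STEM (median 10.1), on 138 to 418 counts per library. The groups did not overlap, but horse serum library 6, at 11.4 CPM, lay just above the highest STEM library, while the other horse serum libraries had at least 20.2 CPM. The means were 21.7 ± 5.51 and 10 ± 1.10 CPM, a 2.15-fold fall with a log2 fold change of -1.11 (standard error 0.167, 95% interval -1.47 to -0.75, adjusted p = 0.000197 in edgeR), and -1.24 without library 6. Per exonic length, the level of Sparc was 69.1 to 84.5 times that of Sparcl1 in horse serum libraries 1 to 5, 164 times in library 6 and 217 to 299 times in the STEM libraries.

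Postn and Tnc, 2 genes of matrix proteins that are induced in injured and growing tissue, also differed in direction. Periostin binds integrins and collagen and promotes collagen cross-linking. Postn (ENSMUSG00000027750, chromosome 3, 54361109 to 54391037) was at 556 to 943 CPM with horse serum (median 918) and at 585 to 743 CPM with STEM (median 639). The groups overlapped through library 6 alone, whose 556 CPM was below every STEM library, while horse serum libraries 1 to 5 lay between 897 and 943 CPM. The means were 862 ± 151 and 655 ± 65.9 CPM, and the log2 fold change was -0.40 (standard error 0.115, 95% interval -0.64 to -0.15, adjusted p = 0.0152 in edgeR). Without library 6 it was -0.49 (standard error 0.0569, adjusted p = 8.1e-07 in edgeR), and the groups no longer overlapped. In edgeR without the filter on low counts, the call was lost (adjusted p = 0.0633).
Tenascin-C is a large multimeric protein that modulates the adhesion of cells to fibronectin. Tnc (ENSMUSG00000028364, chromosome 4, 63959785 to 64047015) ranged from 818 to 1284 CPM with horse serum (median 962) and from 1425 to 1865 CPM with STEM (median 1657). The groups did not overlap, all STEM libraries being higher, and library 6 was the highest of the horse serum group. The means were 989 ± 163 and 1646 ± 152 CPM (SD, n = 6 each), a 1.66-fold rise with a log2 fold change of 0.73 (standard error 0.0968, 95% interval 0.53 to 0.94, adjusted p = 4.91e-05 in edgeR), and 0.82 without library 6. The noncoding transcript 8030451A03Rik on the opposite strand shares 176 exonic bases with Tnc and did not exceed 18 counts in any library. The limit given below for the shared bases of Thbs3 holds here too.

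Thrombospondins are calcium-binding glycoproteins. Thrombospondin-1 and -2 form trimers that bind CD36 and CD47, and thrombospondin-1 is known to activate latent TGF-beta. Thrombospondin-3 belongs to the pentameric subgroup. None of the 3 genes was called in edgeR with all libraries, and in each the horse serum group was stretched by library 6. Thbs1 (ENSMUSG00000040152, chromosome 2, 118111876 to 118127133) had 1532 to 3921 CPM with horse serum (median 2022) and 1317 to 1862 CPM with STEM (median 1547). The groups overlapped, also without library 6, whose 3921 CPM was 2.07 times the mean of the other horse serum libraries. The log2 fold change was -0.50 (standard error 0.195, 95% interval -0.92 to -0.07, unadjusted, adjusted p = 0.0647 in edgeR). It was -0.26 without library 6 (standard error 0.0983, adjusted p = 0.0433 in edgeR) and -0.59 without horse serum library 1 (standard error 0.187, adjusted p = 0.0335 in edgeR), so that either omission brought the call.
Thbs2 (ENSMUSG00000023885, chromosome 17, 14665500 to 14694235) was the gene whose direction depended on library 6. It lay between 117 and 134 CPM in horse serum libraries 1 to 5, at 323 CPM in library 6 and between 137 and 149 CPM with STEM. Library 6 was thus more than any STEM library, while the other 5 were below each of them. With all libraries the log2 fold change was -0.17 (standard error 0.235, 95% interval -0.68 to 0.35, adjusted p = 0.613 in edgeR), and without library 6 it was 0.16 (standard error 0.0421, adjusted p = 0.00312 in edgeR).
Thbs3 (ENSMUSG00000028047, chromosome 3, 89215180 to 89226837) was the member with the lowest counts, 107 to 331 per library. It had 8.26 to 10.5 CPM in horse serum libraries 1 to 5, 17.0 CPM in library 6 and 12.7 to 16 CPM with STEM. Library 6 was again above all STEM libraries and the other 5 below them. The log2 fold change was 0.42 (standard error 0.157, 95% interval 0.08 to 0.75, unadjusted), with an adjusted p of 0.05003 in edgeR, just above the threshold. With all libraries, DESeq2 (0.42, adjusted p = 0.0339) and limma-voom (0.43, adjusted p = 0.0360) called the gene. Without library 6 the log2 fold change was 0.62 (adjusted p = 1.4e-05 in edgeR). Thbs3 lies wholly inside the span of Mtx1, a gene on the opposite strand that encodes the mitochondrial protein metaxin-1, and shares 318 exonic bases with it. Mtx1 was at 21.3 ± 1.59 CPM in the control group and 21.2 ± 0.922 CPM in the STEM group (log2 fold change -0.01, adjusted p = 0.935 in edgeR). The strand setting of the counting is not given in the sources used here, so reads in the shared bases cannot be told apart.

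**Figure D2:**
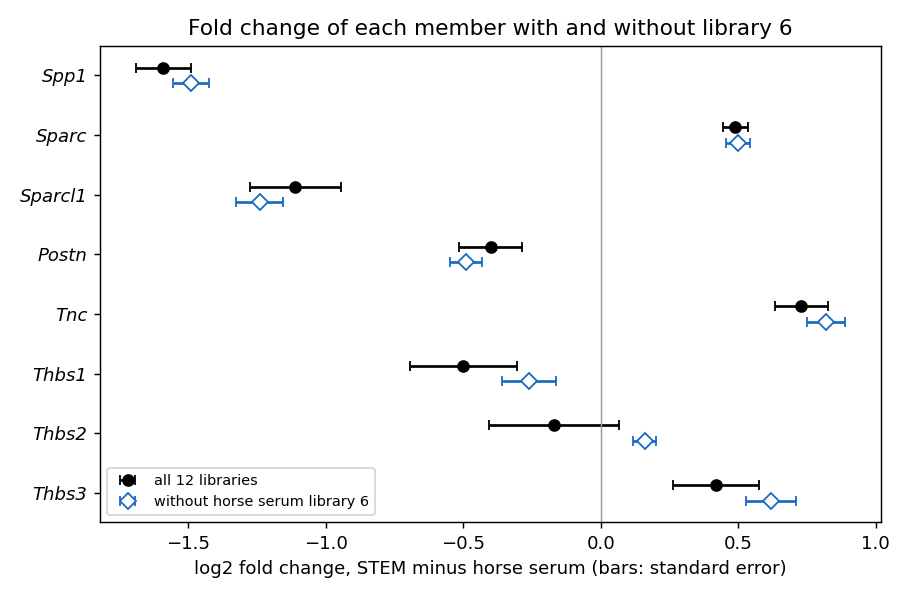
Log2 fold change (STEM minus horse serum, horizontal axis) of each gene with its standard error, from all 12 libraries (filled circles) and without horse serum library 6 (open diamonds). Spp1, Sparc, Sparcl1, Postn and Tnc keep their side of 0 with similar size, while Thbs2 moves from -0.17 to 0.16 and Thbs1 from -0.50 to -0.26.

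The spread between the horse serum libraries depended on library 6. The coefficient of variation of the 8 genes was 3.16% to 12.1% with STEM, 2.02% to 12.8% in horse serum libraries 1 to 5, and 3.55% to 50% in all 6 horse serum libraries. In library 6, Spp1, Tnc, Thbs1, Thbs2 and Thbs3 were 1.42, 1.38, 2.07, 2.53 and 1.85 times the mean of the other 5, and Sparcl1 and Postn were 0.481 and 0.602 times. The lower myotube marker sum of library 6 moved with these values. Its proliferation markers summed to 909 CPM, the highest of the horse serum group, against 547 to 834 CPM in the other 5. Of these markers, Mki67 and Ccnb1 were highest there, while Top2a and Cdk1 lay within the range of the other 5. The part of either marker sum in the levels of the 8 genes was not tested.

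Levels of different genes were compared per kilobase of exon (RPKM). With horse serum the order was Spp1 (1202 ± 206 RPKM), Sparc (625 ± 22.2), Thbs1 (367 ± 141), Tnc (127 ± 21), Postn (99.1 ± 17.4), Thbs2 (22.8 ± 11.4), Sparcl1 (7.39 ± 1.88) and Thbs3 (2.17 ± 0.679). Sparc and Thbs1 overlapped in range, as did Tnc and Postn, each with the first above the second in 5 of 6 libraries. With STEM, Sparc (877 ± 34.3 RPKM) stood above Spp1 (399 ± 37.7) in 6 of 6 libraries, which reversed the order of the horse serum libraries. Then came Thbs1 (260 ± 31.4), Tnc (212 ± 19.6), Postn (75.3 ± 7.58), Thbs2 (20.4 ± 0.643), Sparcl1 (3.41 ± 0.374) and Thbs3 (2.93 ± 0.310). The ranges of Thbs1 and Tnc overlapped, as did those of Sparcl1 and Thbs3. The ratio of Spp1 to Sparc, both in RPKM, was 1.62 to 2.49 in the horse serum libraries and 0.378 to 0.509 in the STEM libraries.
As a share of the summed RPKM of the 8 genes, Spp1 took 48.9% ± 1.70 with horse serum and 21.5% ± 1.16 with STEM (SD, n = 6 each), and Sparc took 25.8% ± 3.25 and 47.5% ± 2.68. The share of Tnc was 5.18% ± 0.298 and 11.4% ± 0.683, and that of Thbs1 was 14.6% ± 3.07 and 14.1% ± 1.38. Shares are a description of relative levels with no test. When the length of the longest transcript replaced that of all exons, the shares of Spp1 were 42.7% and 17.2% and those of Sparc 33.9% and 56.9%, and Postn stood above Tnc with horse serum. The 8 genes together held 0.741% to 0.831% of the counts in horse serum libraries 1 to 5, 1.19% in library 6 and 0.762% to 0.862% in the STEM libraries.

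**Figure D3:**
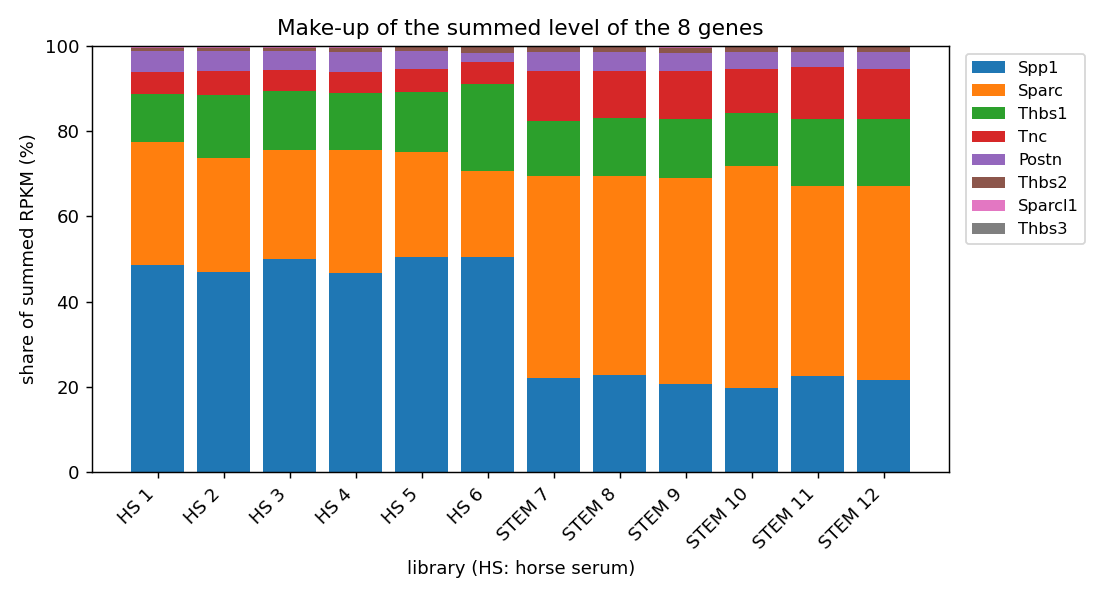
Share of each gene in the summed RPKM of the 8 genes (vertical axis, percent) in each library, as stacked bars. Spp1 takes 46.8% to 50.6% of the sum in the horse serum libraries and 19.7% to 22.7% in the STEM libraries, where Sparc takes the largest share.

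The relatives of the 8 genes were followed as a list of 16 other thrombospondins, tenascins, SPARC family members and osteopontin relatives. Of these, 7 were tested and 4 rose, none fell, with a median log2 fold change of 0.55. Smoc2, a SPARC family member, went from 13.4 ± 2.06 to 25.7 ± 1.69 CPM (log2 fold change 0.94, adjusted p = 3.03e-06 in edgeR). Fstl1, which encodes the secreted follistatin-like protein of the same family, went from 1077 ± 36.9 to 1579 ± 102 CPM (0.55, adjusted p = 1.94e-06 in edgeR). Tgfbi, the closest relative of Postn, went from 2.77 ± 0.751 to 4.42 ± 0.636 CPM (0.68, adjusted p = 0.00589 in edgeR), opposite in direction to Postn. The fourth was the tenascin gene Tnn. The other SPARC family gene with a substantial level, Spock2, was at 83.4 ± 7.25 and 83.7 ± 2.87 CPM and was not called. Thbs4, Comp, Tnr and Tnxb were among the 9 not tested, with at most 11 counts in any library.
The CCN family, matricellular proteins that include known targets of mechanical and TGF-beta signalling, had 4 tested genes, of which 1 rose and 2 fell (median log2 fold change -0.06). Ccn2, the connective tissue growth factor gene, went from 101 ± 15.6 to 57.0 ± 12.3 CPM (log2 fold change -0.82, adjusted p = 0.000912 in edgeR). Ccn1 went from 136 ± 13.7 to 105 ± 6.36 CPM (-0.37, adjusted p = 0.000531 in edgeR), and Ccn5 from 60.6 ± 7.98 to 73.3 ± 6.88 CPM (0.28, adjusted p = 0.0171 in edgeR). Ccn4 had the pattern of Thbs2 and Thbs3, with 204 to 272 CPM in horse serum libraries 1 to 5, 560 CPM in library 6 and 341 to 377 CPM with STEM. It was called without library 6 (log2 fold change 0.53, adjusted p = 4.4e-07 in edgeR) and not with it (0.25, adjusted p = 0.37).

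Receptors of these proteins were a list of 19 integrin subunits and other genes whose products are known to bind them. Of the 14 tested, 1 rose and 4 fell, with a median log2 fold change of -0.02. The 1 that rose was the calreticulin gene Calr, and not an integrin or syndecan gene. Calr went from 882 ± 99.3 to 1093 ± 101 CPM (log2 fold change 0.31, adjusted p = 0.00557 in edgeR). Itga3 and Itga6, integrin subunits that pair with the product of Itgb1, went from 59.5 ± 6.44 to 36.6 ± 4.06 CPM (log2 fold change -0.70, adjusted p = 1.74e-05 in edgeR) and from 56.9 ± 7.09 to 42.9 ± 2.57 CPM (-0.41, adjusted p = 0.000567 in edgeR). Sdc4, the gene of the fibronectin co-receptor syndecan-4, went from 229 ± 47.3 to 123 ± 24.2 CPM (-0.89, adjusted p = 0.00117 in edgeR). The osteopontin receptor genes Cd44, Itgav, Itgb3 and Itgb5 were not called, with log2 fold changes between -0.10 and 0.18. Itgb1, of the same receptor list, was called lower (log2 fold change -0.17, adjusted p = 0.0247 in edgeR). Its log2 fold change was -0.21 without library 6 (adjusted p = 0.000591 in edgeR). Without library 6, Cd44 was called higher (log2 fold change 0.25, adjusted p = 0.00137 in edgeR, against 0.0874 with it). Cd36, the thrombospondin receptor, lay at 47.3 to 55.6 CPM in horse serum libraries 1 to 5, at 5.38 CPM in library 6 and at 20 to 32.7 CPM with STEM, and passed without library 6 (log2 fold change -1.04, adjusted p = 7.31e-06 in edgeR) but not with it (-0.80, adjusted p = 0.158). Without library 6, 8 of 15 tested receptor genes passed, 2 higher and 6 lower, beside 50.8% of all genes in the same fit.

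Among 10 genes of collagens and other matrix partners, 6 rose and none fell (median log2 fold change 0.28). Bmp1, whose protease trims procollagen, went from 159 ± 14.4 to 257 ± 5.35 CPM (log2 fold change 0.69, adjusted p = 4.2e-07 in edgeR). Col5a1, a chain of the collagen that nucleates fibrils, went from 1021 ± 107 to 1675 ± 252 CPM (0.71, adjusted p = 7.58e-05 in edgeR), and the basement membrane chain Col4a2 from 195 ± 12.6 to 243 ± 20.9 CPM (0.32, adjusted p = 0.00106 in edgeR). Of 11 proteases known to cut matricellular proteins, 5 were tested, of which 2 rose and 2 fell (median log2 fold change 0.27). Adamts4, whose product cleaves hevin and proteoglycans, went from 36.7 ± 10.3 to 72.1 ± 3.92 CPM (0.97, adjusted p = 0.000109 in edgeR). Adamts1 was higher at 66.5 ± 2.39 against 52.8 ± 4.08 CPM (0.33, adjusted p = 0.000223), and Mmp2 lower at 300 ± 9.57 against 339 ± 18.4 CPM (-0.18, adjusted p = 0.00614), both from the edgeR fit. Mmp3 and Mep1b had a count of 0 in all libraries.
The TGF-beta list held 13 genes of ligands, receptors, latent binders and targets, of which 4 rose and 2 fell (median log2 fold change 0.18). Tgfb2 went from 40.0 ± 4.44 to 72.5 ± 4.79 CPM (log2 fold change 0.86, adjusted p = 5.59e-07 in edgeR) and Tgfb3 from 163 ± 9.24 to 206 ± 10.4 CPM (0.34, adjusted p = 8.93e-05 in edgeR). The receptor gene Tgfbr1 went from 58.7 ± 2.83 to 49.4 ± 3.68 CPM (-0.25, adjusted p = 0.00251 in edgeR). The counts of these lists stand beside 18.9% of all genes called higher and 17.4% called lower. Without library 6, the 28 genes called over these 6 lists with all libraries were all called in the same direction, with log2 fold changes 0.770 to 1.24 times as large. Called genes then numbered 4 of 7 relatives, 4 of 4 CCN genes, 7 of 10 matrix partners, 5 of 5 proteases and 7 of 13 TGF-beta genes, beside the higher background of that fit, 26.3% of all genes called higher and 24.5% lower. The genes added outside the receptor list were Ccn4, Col1a2, Mmp14 and Tgfbr2, all higher with STEM.

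**Figure D4:**
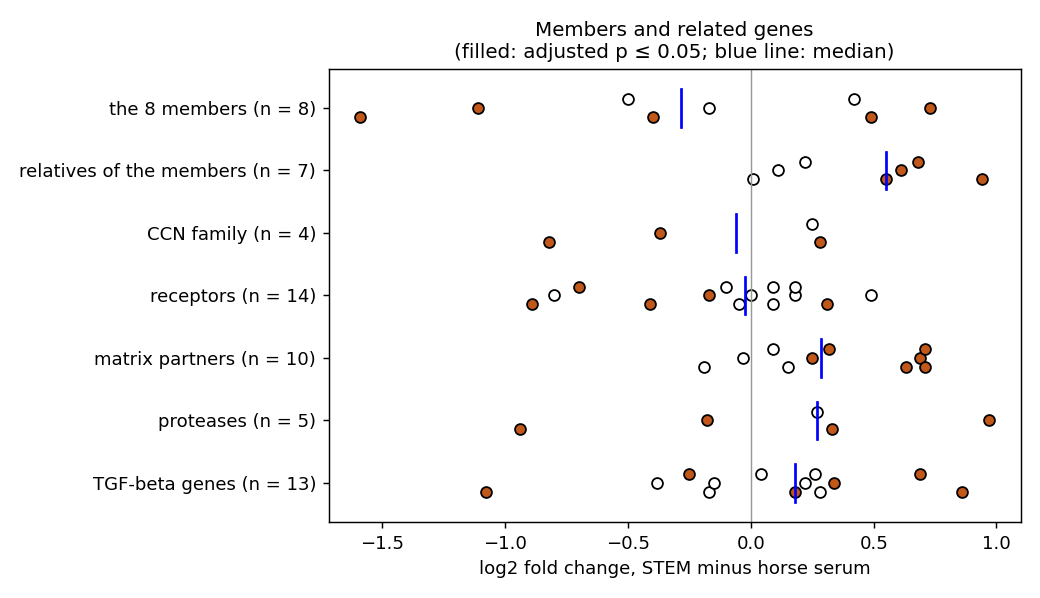
Log2 fold change (STEM minus horse serum, horizontal axis) of the 8 genes and of the tested genes of each related list, with called genes filled and the median of each list as a blue line. Called genes of the matrix partner list and of the list of relatives all lie above 0, while called members, CCN genes, receptors, proteases and TGF-beta genes lie on both sides.

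The genes whose log2 CPM followed each member most closely over the 12 libraries were taken by Pearson's r, as a description, since all points share their libraries and the difference between the groups. Spp1 was followed by Sphk1 (r = 0.99), the gene of a sphingosine kinase, and by Gpd2 (0.99), and within the groups, as deviations from the group means, these r were 0.83 and 0.82. Sparc was followed by the collagen VI gene Col6a1 (0.99 and, within the groups, 0.70) and by Rgcc (0.99 and 0.59). The nearest genes to Sparcl1 were Rcan2 (0.99 and 0.95) and the glutathione peroxidase gene Gpx3 (0.99 and 0.96). For Postn they were Arhgap29 and Mxi1 (0.99 over all libraries and within the groups for both). Tnc lay closest to Ncs1 (0.99 and 0.92) and to Smoc2 (0.98 and 0.88), the SPARC family gene described above. All r within the groups include horse serum library 6, which can carry them, and none was computed without it. For Thbs1 and Thbs2 the r over all libraries also rested more on library 6. Thbs1 was followed by Myof (0.96) and Zfp36l2 (0.95), which were each at 0.86 without that library, and Thbs2 by Tmem173 (0.96) and Rcc2 (0.96), which were at 0.79 and 0.67 without it. Thbs3 was followed by Orai2 and Apex1 (0.97 for both, with and without library 6).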

How the data were processed

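The 12 libraries of C2C12 myotube RNA (6 per group) were prepared by the authors with a stranded kit that removes ribosomal RNA. The authors deposited raw read counts per Ensembl gene on GRCm38, without normalization. The submitters' processing notes name STAR 2.7.3a, featureCounts 1.6.3 and DESeq2 1.26.0. The annotation release and strand setting are not given in the sources used here. Libraries were grouped by their titles, and no pair within a group was as close as a repeat deposit (chi-square per degree of freedom 3.63 to 77.7 over 30 pairs).

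Symbols, coordinates and exon lengths came from GENCODE M21 (GRCm38), which held 55141 of 55487 genes, and promoter windows from RefSeq (GRCm38.p6). Counts were tested with edgeR 4.0.16 (filterByExpr, TMM, robust glmQLFit, glmQLFTest) in R 4.3.3, with Benjamini-Hochberg adjustment and a threshold of 0.05. Standard errors were the log2 fold change divided by the square root of F, and intervals are 95% and unadjusted. CPM used TMM-scaled totals, and RPKM divided CPM by exon length in kilobases. Log2 CPM used a prior count of 2. Alternatives were DESeq2 1.42.0, limma-voom (limma 3.58.1), other scalings and filters, an adjusted p of 0.01 and leaving out each library. The fits were tested on simulated data. All 8 members were named, with the 2 most correlated genes of each, the 3 called genes of lowest p per related list and the markers. Other genes named, among them Pkd2, Mtx1, Spock2, Ccn4, Cd36, Cd44, Col1a2, Mmp14, Tgfbr2 and Tnn, were chosen after their values were seen. The members and lists were chosen with earlier results of these data known. Sparcl1 and Thbs3 rested on 107 to 418 counts per library, all other members on at least 1686.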

Additional observations from a re-analysis of the deposited data

Results flagged for a closer look

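In groups of 6 libraries, a value was singled out when its gap to the nearest other value took up more of the range of the group than Dixon's 95% critical value allows, which chance alone does in about 1 of 20 groups. The 32 groups of values tested were the CPM and the share of each member in each group. They are not independent, since the shares derive from the same CPM and all members from the same libraries. Of these 32, 8 were singled out, all with horse serum and 7 of them in library 6. In that library, Spp1 (2624 CPM), Thbs1 (3921 CPM), Thbs2 (323 CPM) and Thbs3 (17.0 CPM) were high and Postn (556 CPM) was low. The same library stood apart in the share of Postn (2.02%) and of Thbs2 (1.46%) in the summed RPKM. Sparc was low in horse serum library 5 (2199 CPM), against at least 2370 CPM in the other horse serum libraries, and this value is still below every STEM library.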

How the results depend on the processing

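Over 20 alternatives, Spp1, Sparc, Sparcl1 and Tnc kept their direction and their call in each. Postn kept its direction in all and its call in 18, and was not called without the filter on low counts (log2 fold change -0.40, adjusted p = 0.0633) or at an adjusted p of 0.01 (-0.40). Thbs3 was called with DESeq2 (0.42) and limma-voom (0.43). With each library left out, log2 fold changes ranged from -0.59 to -0.26 for Thbs1, which was called without horse serum library 1 (-0.59) or 6 (-0.26), from -0.24 to 0.16 for Thbs2, reversed and called without library 6, and from 0.36 to 0.62 for Thbs3, called without library 6. Members called higher numbered 2 to 4 and receptor genes called 4 to 8, with the highest count of each without library 6. At an adjusted p of 0.01, 3266 genes were called, 1676 higher and 1590 lower. With longest transcript lengths, shares of the summed RPKM with horse serum and STEM were 42.7% and 17.2% for Spp1, 33.9% and 56.9% for Sparc, 5.52% and 4.94% for Postn and 4.53% and 9.11% for Tnc, and with STEM 0.143% for Sparcl1, 10.6% for Thbs1 and 0.954% for Thbs2. Other scalings put the median log2 fold change of all genes between -0.008 and 0.031. The causes of these shifts were not tested. No paired analysis was possible because the labels do not pair libraries of the 2 groups. Depth limits Sparcl1 and Thbs3 most.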
